A study of Arabidopsis thaliana with 4 samples.

Results

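Light-grown seedlings carry a set of proteins that sense light and turn the signal into growth, and 10 of their genes were followed here in *s2lb-2* and wild-type (WT) *Arabidopsis thaliana* seedlings. The 10 genes, of 37336 in the deposited table, were chosen by name and not by their values, with earlier results of these data known. They are the phytochromes *PHYA* and *PHYB*, the cryptochromes *CRY1* and *CRY2*, the PHYTOCHROME INTERACTING FACTORS *PIF3*, *PIF4* and *PIF5*, and the regulators *HY5*, *SPA1* and *TZP*. All 10 had reads in every library and entered the test.

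Mutant *s2lb-2* seedlings were set against WT seedlings of the Col-0 accession. S2Lb is an SWD2-like subunit of the COMPASS complex, which trimethylates lysine 4 of histone H3, and the study asked how its loss affects transcription, with light-driven genes among its examples. The *s2lb-2* line derives from 1 insertion line in the Nossen accession that was backcrossed repeatedly to Col-0. Each genotype has 2 libraries from different seed batches, each made from pooled whole seedlings grown for 6 days on medium without sugar under 16 h of light at 23 °C and 8 h of dark at 19 °C. All seedlings were harvested in the light at the same time of day, so the values are steady-state levels at 1 point of the day and not a response to a first exposure to light. The titles of the *s2lb-2* samples name the mutant while a genotype label of the same samples names a tagged *SDG2* line, and titles and methods were followed. The *S2Lb* gene itself (AT5G66240) had 80.8 and 67.2 normalized counts in the *s2lb-2* libraries, against 1337 and 1613 in the WT libraries, a log2 fold change of -4.30 (limma, SE 0.166, Benjamini-Hochberg adjusted p = 0.0062).

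Phytochromes absorb red and far-red light and cryptochromes absorb blue light. In darkness, PIF transcription factors promote elongation and the COP1/SPA ubiquitin ligase removes growth-restraining factors such as HY5. Activated phytochromes trigger the turnover of PIFs, and phytochromes and cryptochromes inhibit COP1/SPA, so that HY5 accumulates and the seedling opens its cotyledons and greens. Much of this control acts on proteins, which RNA levels do not show.

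A G-box (CACGTG) is the short sequence that PIFs and HY5 bind, and the evening element (AAAATATCT) is common upstream of genes that the clock directs to the evening. Both strands of the 250 bases before the annotated start of each gene were searched for both motifs in the TAIR10.1 assembly. The G-box was present upstream of 2 of the 10 genes, *PHYB* and *PIF5*, and of 6.49% of all 27444 protein-coding gene starts (1780). The evening element was present upstream of 1, *TZP*, and of 2.36% of the same protein-coding gene starts (648). The sequences with a match are given 5′ to 3′ on the strand of the gene, with the match in capitals, because *TZP* had the widest spread over libraries on the log2 scale, and *PIF4* is shown beside its close relative *PIF5* because it holds neither motif and had the lowest fold change of the 10 genes. A match describes these letters only.
*PHYB*, chromosome 2, 8139506 to 8139755, plus strand, with 2 G-boxes 146 to 141 and 111 to 106 bases before the start:
PHYB: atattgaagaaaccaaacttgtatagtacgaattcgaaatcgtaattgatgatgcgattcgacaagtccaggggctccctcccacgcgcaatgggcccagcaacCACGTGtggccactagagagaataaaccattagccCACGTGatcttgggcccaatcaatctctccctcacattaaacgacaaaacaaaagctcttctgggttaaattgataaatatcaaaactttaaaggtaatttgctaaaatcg
*PIF5*, chromosome 3, 21830838 to 21831087, minus strand, with 1 G-box 165 to 160 bases before the start:
PIF5: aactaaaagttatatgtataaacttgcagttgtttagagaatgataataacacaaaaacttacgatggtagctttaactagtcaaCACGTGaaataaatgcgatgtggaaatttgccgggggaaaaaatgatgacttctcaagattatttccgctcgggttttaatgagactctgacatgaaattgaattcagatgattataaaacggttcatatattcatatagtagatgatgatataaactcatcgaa
*PIF4*, chromosome 2, 17885851 to 17886100, plus strand, with no match:
PIF4: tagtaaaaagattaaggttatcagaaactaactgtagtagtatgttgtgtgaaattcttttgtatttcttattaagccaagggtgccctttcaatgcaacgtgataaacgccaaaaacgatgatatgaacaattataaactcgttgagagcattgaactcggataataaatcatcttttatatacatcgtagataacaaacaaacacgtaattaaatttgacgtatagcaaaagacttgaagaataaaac
*TZP*, chromosome 5, 17526410 to 17526659, plus strand, with 1 evening element 156 to 148 bases before the start:
TZP: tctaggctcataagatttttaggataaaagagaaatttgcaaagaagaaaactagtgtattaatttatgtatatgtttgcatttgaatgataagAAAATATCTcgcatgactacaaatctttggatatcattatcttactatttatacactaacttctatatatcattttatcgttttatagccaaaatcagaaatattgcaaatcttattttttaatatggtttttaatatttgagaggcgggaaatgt

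None of the 10 genes passed the test between *s2lb-2* and WT seedlings. The values are normalized counts, which are reads per gene divided by a size factor of the library, and the test was limma on log2(normalized count + 1) with a Benjamini-Hochberg adjusted p under 0.01 over 23723 genes. At this threshold limma called 0 of the 10 genes, where it called 29 of all genes tested (0.122%). At an adjusted p under 0.05 it called 0 of 10 as well, against 1.6% of all genes. With no adjustment, limma gave 2 of the 10 genes, *CRY2* and *PIF4*, a p under 0.05, against 17.4% of all genes, and both were lower in *s2lb-2* seedlings, against 8.9% of all genes in that direction. Count tests on the recovered reads likewise called 0 of the 10 genes, while they called 3.12% of all genes with DESeq2, 0.177% with the quasi-likelihood test of edgeR, 0.131% with limma-voom and 3.96% with the likelihood ratio test of edgeR.

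The log2 fold change was below 0 for 9 of the 10 genes and above 0 for *PHYB*. Of all 23723 genes tested, 11929 were below 0. The median log2 fold change over the 10 genes was -0.17, with a range from -0.51 to 0.09. Over all genes tested the median was 0.00. Leaving out 1 library turned the direction of 6 genes, *PHYA*, *PHYB*, *PIF5*, *HY5*, *SPA1* and *TZP*, and the library and the value are given with each of them. In 3 of the 10 genes, *CRY1*, *CRY2* and *PIF4*, both *s2lb-2* libraries lay below both WT libraries, which was the case for 24.7% of all genes. In 0 of the 10 both *s2lb-2* libraries lay above both WT libraries, against 24.8% of all genes. The RNA came from whole seedlings, in which fewer cells of a type and less RNA per cell cannot be told apart.

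**Figure D1:**
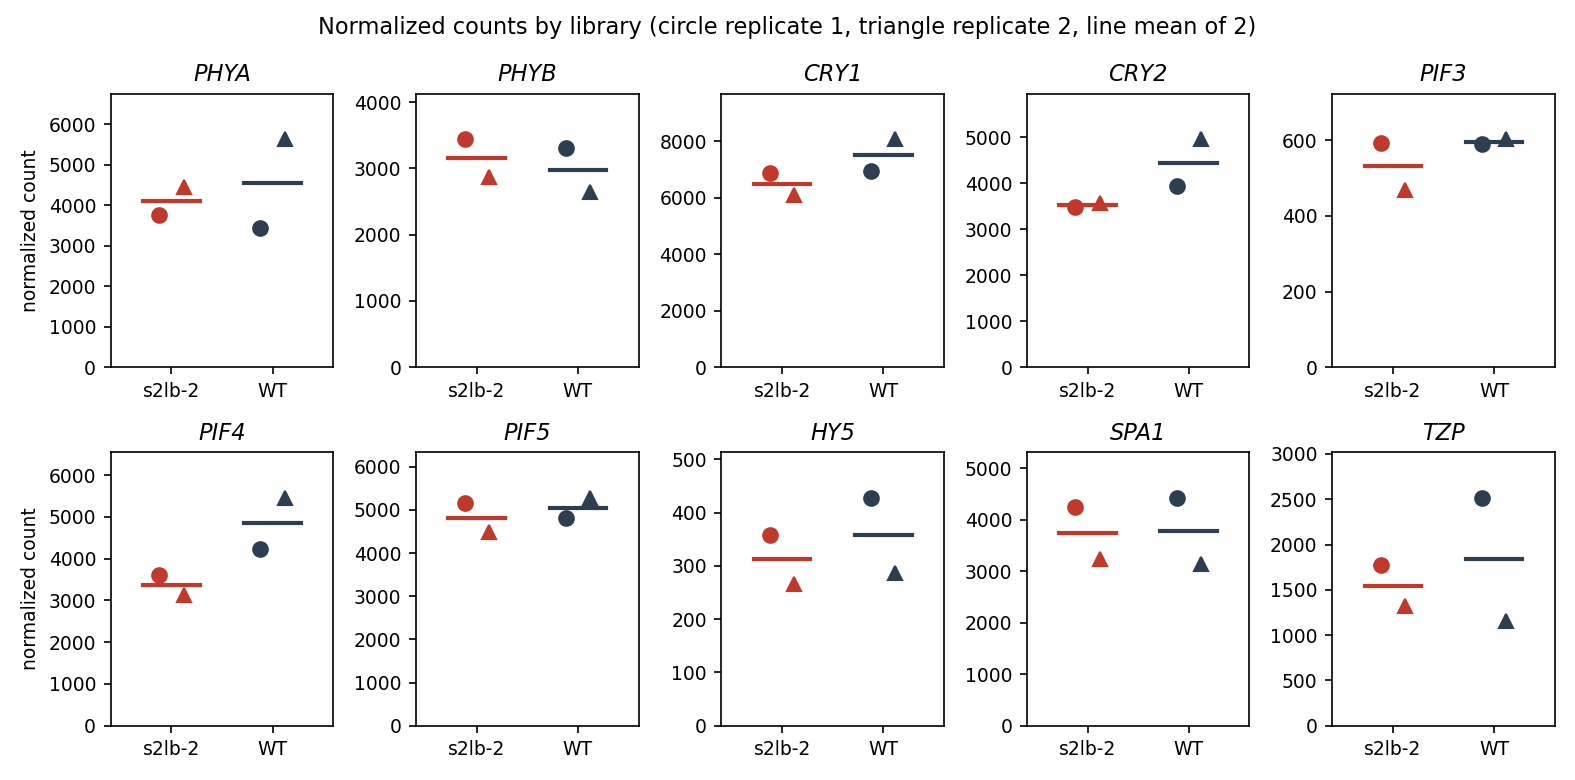
Normalized counts of the 10 genes in each library, with *s2lb-2* on the left and WT on the right of each panel, circles for replicate 1, triangles for replicate 2 and a line at the mean of the 2 libraries. Each panel has its own axis from 0. The *s2lb-2* points lie below the WT points for *CRY1*, *CRY2* and *PIF4*, and the points of the genotypes overlap in the other 7 panels.

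*PHYA* (AT1G09570, chromosome 1, 3095160 to 3100819) encodes the light-labile phytochrome that senses far-red and very weak light. It had 3764 and 4448 normalized counts in *s2lb-2* seedlings, against 3441 and 5632 in WT seedlings. The WT libraries enclosed the *s2lb-2* libraries, and replicate 2 was the higher one in both genotypes. *PHYA* had a log2 fold change of -0.11 (95% interval -0.70 to 0.48, limma adjusted p = 0.861). Without WT replicate 2 it was 0.25, and without *s2lb-2* replicate 1 it was 0.02.

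*PHYB* (AT2G18790, chromosome 2, 8139756 to 8144461), the main red light receptor of green tissue, whose upstream region holds the pair of G-boxes shown above, had the opposite order of replicates. It had 3443 and 2875 normalized counts in *s2lb-2* seedlings, against 3314 and 2651 in WT seedlings. Replicate 1 was the higher one in both genotypes, and the genotypes overlapped. *PHYB* had a log2 fold change of 0.09 (95% interval -0.27 to 0.45, limma adjusted p = 0.809), and it was -0.07 without WT replicate 2 and -0.04 without *s2lb-2* replicate 1.

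*PHYA* and *PHYB* made up most of the phytochrome transcripts. TPM, the reads per kilobase of exon scaled to the same sum in each library, was used to compare genes. The *PHYA* to *PHYB* ratio of TPM was 0.969 and 1.37 in *s2lb-2* libraries, against 0.92 and 1.88 in WT libraries. It differed more between the replicates of a genotype than between the genotypes. The summed TPM of the phytochromes *PHYA* to *PHYE* was 98.8 and 105 in *s2lb-2* libraries, against 97 and 109 in WT libraries. The sum therefore lay within the WT range while the shares of its members shifted with the replicate, with *PHYA* at 31.7% and 37.9% of it in *s2lb-2* libraries, against 29.7% and 44.2% in WT libraries.

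*CRY1* (AT4G08920, chromosome 4, 5723651 to 5727268), the main cryptochrome of blue light de-etiolation, had 6868 and 6108 normalized counts in *s2lb-2* seedlings, against 6962 and 8080 in WT seedlings. Both *s2lb-2* libraries were lower, although *s2lb-2* replicate 1 lay close to WT replicate 1. This gave *CRY1* a log2 fold change of -0.21 (95% interval -0.48 to 0.06, limma adjusted p = 0.386).

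*CRY2* (AT1G04400, chromosome 1, 1185512 to 1188696), the light-labile cryptochrome known for its role in flowering time, had 3490 and 3581 normalized counts in *s2lb-2* seedlings, against 3939 and 4960 in WT seedlings. The *s2lb-2* libraries were close to each other (mean 3535 ± 64.1, SD, n = 2) and both lay below the WT libraries (4450 ± 722, SD, n = 2). The log2 fold change was -0.32 (95% interval -0.63 to -0.01) with a limma adjusted p of 0.269. The balance of *CRY1* and *CRY2* was similar in the 4 libraries, and *CRY2* made up 36% and 39.3% of the summed cryptochrome TPM in *s2lb-2* libraries, against 38.5% and 40.4% in WT libraries.

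*PIF3* (AT1G09530, chromosome 1, 3075768 to 3079654) encodes the founding PIF, which represses greening in the dark. It had 594 and 469 normalized counts in *s2lb-2* seedlings, against 589 and 603 in WT seedlings. *s2lb-2* replicate 2 was low, and *s2lb-2* replicate 1 lay between the WT libraries. The log2 fold change was -0.18 (95% interval -0.54 to 0.19, limma adjusted p = 0.586), and it was -0.00 without *s2lb-2* replicate 2.

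*PIF4* (AT2G43010, chromosome 2, 17886101 to 17889087), which drives elongation at warm temperature and in shade, showed the largest difference of the 10 genes. It had 3620 and 3128 normalized counts in *s2lb-2* seedlings, against 4223 and 5463 in WT seedlings. Both *s2lb-2* libraries were below both WT libraries, and the WT libraries were further apart than the *s2lb-2* libraries. The mean was 3374 ± 348 in *s2lb-2* seedlings and 4843 ± 877 in WT seedlings (SD, n = 2 each). The fold was 0.701 (95% interval 0.543 to 0.903), a log2 fold change of -0.51 (-0.88 to -0.15) with a limma adjusted p of 0.173. The adjusted p over 11 alternatives with all libraries ranged from 0.0509 to 0.193, so that *PIF4* passed neither threshold in any of them, and the log2 fold change over all 15 alternatives ranged from -0.70 to -0.33.

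*PIF5* (AT3G59060, chromosome 3, 21827905 to 21830837), a close relative of *PIF4* with a role in daily growth rhythms and shade, had no such difference. It had 5154 and 4483 normalized counts in *s2lb-2* seedlings, against 4806 and 5287 in WT seedlings. The genotypes overlapped. *PIF5* had a log2 fold change of -0.07 (95% interval -0.32 to 0.19, limma adjusted p = 0.782), and it was 0.03 without *s2lb-2* replicate 2 and 0.00 without WT replicate 2.

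Within a library, the ratio of the pair does not depend on the scaling between libraries. The ratio of *PIF5* to *PIF4* TPM was 1.44 and 1.45 in *s2lb-2* libraries, against 1.15 and 0.981 in WT libraries. *PIF4* made up 24.7% and 25.1% of the summed TPM of *PIF1*, *PIF3*, *PIF4*, *PIF5*, *PIF7* and *PIF8* in *s2lb-2* libraries, against 30.5% and 34.9% in WT libraries. The shares did not overlap between genotypes, but with 2 libraries against 2 the smallest p that a two-sided exact permutation test can reach is 0.333, and the shares are given as a description. Shares of a sum are tied, so that a lower share of *PIF4* goes with higher shares among the rest. *PIF8*, a PIF that was not among the 10 genes, made up 11.2% and 9.97% in *s2lb-2* libraries, against 7.72% and 5.02% in WT libraries. *PIF7*, likewise not among the 10, made up 15.8% and 17.4% in *s2lb-2* libraries, against 14.2% and 13.4% in WT libraries. *PIF5* made up 35.7% and 36.4% in *s2lb-2* libraries, against 35.2% and 34.3% in WT libraries. For these 3 genes both *s2lb-2* shares were the higher ones, by little for *PIF5*.

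**Figure D2:**
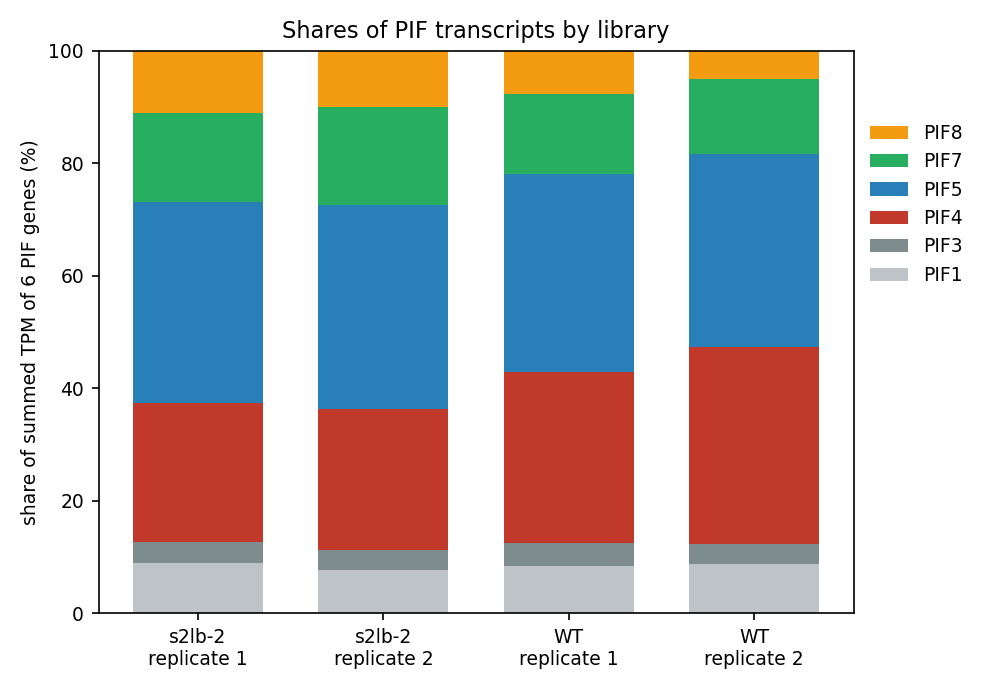
Share of each of 6 PIF genes in their summed TPM (percent, from 0 to 100), with the *s2lb-2* libraries on the left and the WT libraries on the right. The *PIF4* segment is 24.7% and 25.1% in *s2lb-2* libraries, against 30.5% and 34.9% in WT libraries, and the *PIF5* segment is similar in all 4.

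*HY5* (AT5G11260, chromosome 5, 3593335 to 3595073) encodes the bZIP factor that promotes photomorphogenesis and is degraded through COP1. It had 358 and 266 normalized counts in *s2lb-2* seedlings, against 428 and 286 in WT seedlings. Replicate 1 was the higher library in both genotypes, and the genotypes overlapped. The log2 fold change was -0.18 (95% interval -0.80 to 0.44, limma adjusted p = 0.756), and it was 0.11 without WT replicate 1 and 0.03 without *s2lb-2* replicate 2.

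*SPA1* (AT2G46340, chromosome 2, 19022154 to 19027528) encodes a partner of COP1 that represses light signalling. It had 4252 and 3233 normalized counts in *s2lb-2* seedlings, against 4427 and 3130 in WT seedlings. The genotypes had nearly the same mean and the same order of replicates. *SPA1* had a log2 fold change of -0.01 (95% interval -0.52 to 0.50, limma adjusted p = 0.992), and it was 0.24 without WT replicate 1 and 0.19 without *s2lb-2* replicate 2.

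*TZP* (AT5G43630, chromosome 5, 17526660 to 17530605), which encodes a nuclear zinc knuckle and PLUS3 domain protein that acts with the phytochromes, had the widest range over the 4 libraries on the log2 scale (1.12). It had 1772 and 1321 normalized counts in *s2lb-2* seedlings, against 2518 and 1156 in WT seedlings. Both extremes were WT libraries, which enclosed the *s2lb-2* libraries. *TZP* had a log2 fold change of -0.16 (95% interval -1.08 to 0.76, limma adjusted p = 0.867). It was 0.40 without WT replicate 1 and 0.05 without *s2lb-2* replicate 2. The interval reaches from a lower level to a higher level in *s2lb-2* seedlings, and a difference of moderate size in *TZP* was not detectable with these libraries.

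**Figure D3:**
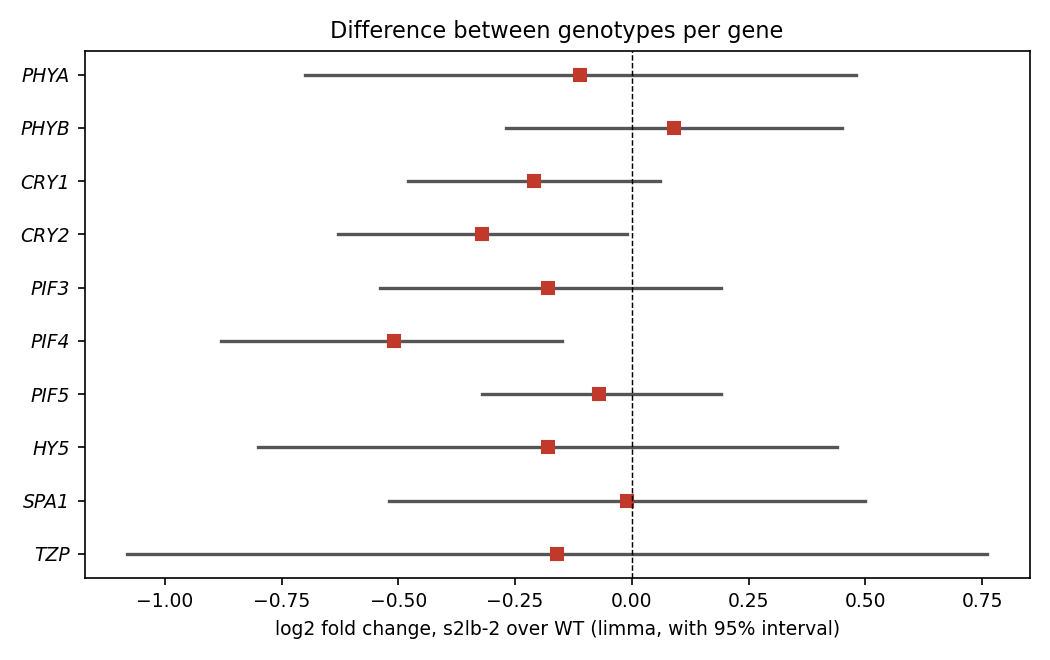
Log2 fold change of *s2lb-2* over WT for each gene (squares, limma) with its 95% interval (lines), in the order of receptors, PIFs and regulators from the top. The intervals of *CRY2* and *PIF4* end below 0, at -0.01 and -0.15, the other 8 include 0, and the interval of *TZP* is the widest, from -1.08 to 0.76.

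The spread between libraries of the same genotype differed widely among the 10 genes. The SD of the log2 values within genotypes was 0.6 for *TZP*, at the 97.8th percentile of 16263 genes with a mean of at least 100, whose median was 0.113. The SD was 0.375 for *PHYA*, 0.36 for *HY5* and 0.319 for *SPA1*, all at or above the 90.4th percentile, and it was lowest for *PIF5* at 0.122, close to the median gene. The genes with the widest spread thus had the widest intervals.

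In 4 of the 10 genes, *PHYB*, *HY5*, *SPA1* and *TZP*, both libraries numbered replicate 1 lay above both numbered replicate 2, which was the case for 15.5% of all genes tested. *PHYA* had the reverse order, as had 15.2% of all genes. The log2 ratio of replicate 1 to replicate 2 for *TZP* was 0.42 in *s2lb-2* seedlings and 1.12 in WT seedlings. The summed normalized count of 3 seed storage genes moved with the same libraries, with 62.1 and 9.31 in *s2lb-2* libraries, against 118 and 19.5 in WT libraries. Of these genes *SESA1* was at 0 in both replicate 2 libraries and none was called between genotypes, and their part in the spread of *TZP* was not tested.

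By the root mean square difference of their centred log2 values over the 4 libraries, the genes most like *TZP* among 16262 were *EXO70H1* (0.0254), *JAZ1* (0.0536), *SPL11* (0.0573), AT5G59450 (0.0636) and AT1G66540 (0.0639). *EXO70H1*, annotated as an exocyst subunit, had 121 and 88.9 normalized counts in *s2lb-2* seedlings, against 167 and 79.9 in WT seedlings. *JAZ1*, a repressor of jasmonate signalling, had 549 and 400 in *s2lb-2* seedlings, against 833 and 379 in WT seedlings. Both had their highest and lowest value in WT libraries, as *TZP* had, which follows from how they were picked. With 4 points, such likeness is a description.

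The levels of the 10 genes, compared per exon length, spanned about an order of magnitude. *CRY1* was highest, with 96.6 and 92.7 TPM in *s2lb-2* libraries, against 98.8 and 117 TPM in WT libraries. *PIF3* was lowest, with 9.13 and 7.77 TPM in *s2lb-2* libraries, against 9.13 and 9.52 TPM in WT libraries. Even *PIF3* lay above the median of 5.74 TPM over genes with reads. The order of mean TPM was *CRY1* (101), *PIF5* (84), *PIF4* (68.9), *CRY2* (63.9), *SPA1* (39.7), *PHYA* (37), *PHYB* (29.6), *TZP* (21), *HY5* (11.6) and *PIF3* (8.89). The ranges over the 4 libraries separated 3 of the 9 pairs of neighbours, *CRY1* from *PIF5*, *CRY2* from *SPA1*, and *HY5* from *PIF3*. The ranges of the other neighbours overlapped. Read library by library, *PHYB* was nonetheless above *TZP*, and *TZP* above *HY5*, in each of the 4. With the coding length in place of the exon length, *PIF5* (91.8) came before *CRY1* (85).

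**Figure D4:**
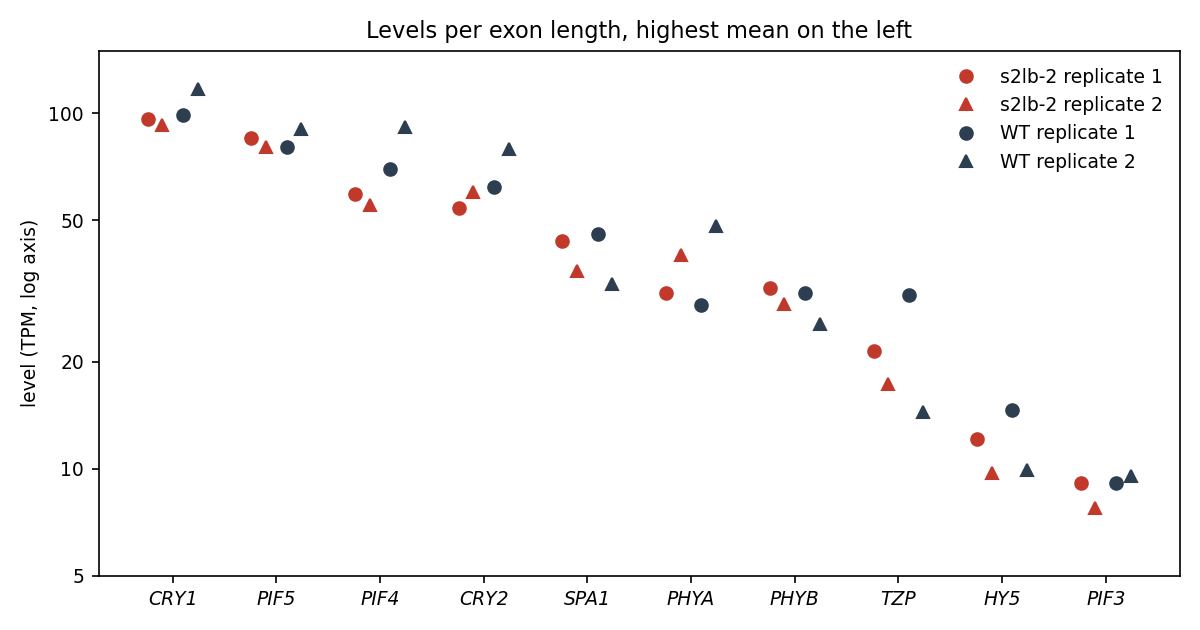
Level of each gene in TPM (log axis) in the 4 libraries, ordered by the mean, with *s2lb-2* (red) left of WT (dark), circles for replicate 1 and triangles for replicate 2. *CRY1*, *CRY2* and *HY5* each lie wholly above the next gene in the order, and *TZP* spreads from 14.4 to 30.9 TPM.

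Around these 10 genes, 60 other genes of light signalling in 7 lists were tested. limma called 0 of the 60 at an adjusted p under 0.01, and 1 of them, *BBX22*, at 0.05, against the 0.122% and 1.6% of all genes given above. With no adjustment, 12 had a p under 0.05 by limma, against 17.4% of all genes. The median log2 fold change of the 60 was -0.02, and both *s2lb-2* libraries lay above both WT libraries for 14 of them (23.3%) and below for 16 (26.7%), close to the 24.8% and 24.7% of all genes. DESeq2 called 2 of the 60 at 0.01, *BBX22* (log2 fold change -0.88, adjusted p = 3.56e-06) and *TT4* (0.98, adjusted p = 6.33e-05), where it called 3.12% of all genes. The likelihood ratio test of edgeR called 5, *BBX22*, *TT4*, *FKF1*, *RUP1* and *XTH15*, where it called 3.96% of all genes. Its adjusted p was 0.0057 for *FKF1*, 0.00562 for *RUP1* and 0.00549 for *XTH15*.

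Among 10 other photoreceptors, 9 had a log2 fold change below 0, against 11929 of all 23723 genes tested, and the median was -0.08. *PHOT2*, a blue light receptor of chloroplast movement, had 11322 and 9962 normalized counts in *s2lb-2* seedlings, against 8798 and 8352 in WT seedlings (log2 fold change 0.31, limma adjusted p = 0.187). *PHOT1*, the phototropin of weak light, had 11112 and 10063 in *s2lb-2* seedlings, against 11624 and 12238 in WT seedlings (-0.17, limma adjusted p = 0.373). The phototropins thus differed in direction, and neither passed the test. *FKF1*, a blue light receptor F-box protein of day length sensing, had 121 and 141 in *s2lb-2* seedlings, against 273 and 223 in WT seedlings (-0.91, limma adjusted p = 0.0977). *PHYC* was nearly equal, at 1252 and 1244 in *s2lb-2* seedlings, against 1266 and 1250 in WT seedlings.

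Among 8 other PIF and related bHLH genes, 4 were above 0 and 4 below, with a median of -0.09. *PIF8* had 1190 and 904 normalized counts in *s2lb-2* seedlings, against 777 and 570 in WT seedlings (log2 fold change 0.64, limma adjusted p = 0.201). *HFR1*, whose product holds PIFs off DNA, had 149 and 121 in *s2lb-2* seedlings, against 73.5 and 72.5 in WT seedlings (0.87, limma adjusted p = 0.125). *PAR2*, of a similar inhibitory kind, lay on the other side with 145 and 164 in *s2lb-2* seedlings, against 263 and 218 in WT seedlings (-0.63, limma adjusted p = 0.168). Its relative *PAR1* overlapped between genotypes, with 103 and 198 in *s2lb-2* seedlings, against 157 and 449 in WT seedlings. The lowest value of the list, -1.61, belonged to *PIL1*, named after its values were seen, with 2.95 and 5.17 in *s2lb-2* seedlings, against 17.8 and 11.1 in WT seedlings (limma adjusted p = 0.201).

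Of 7 signalling partners of the receptors, *RUP1*, a repressor of the UV-B receptor, had 158 and 131 normalized counts in *s2lb-2* seedlings, against 257 and 267 in WT seedlings (log2 fold change -0.86, limma adjusted p = 0.0884). *FHY1*, which carries PHYA into the nucleus, had 190 and 245 in *s2lb-2* seedlings, against 247 and 388 in WT seedlings (-0.52, limma adjusted p = 0.38). *RUP2* (0.19) and *PKS1*, a phytochrome kinase substrate (-0.10), overlapped between genotypes.

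*BBX22* encodes a B-box factor that acts with HY5, and it stood apart in the list of 9 HY5 partners and B-box genes. It had 1137 and 970 normalized counts in *s2lb-2* seedlings, against 2054 and 1832 in WT seedlings. Both *s2lb-2* libraries lay well below both WT libraries. *BBX22* had a log2 fold change of -0.88 (95% interval -1.18 to -0.59, limma adjusted p = 0.0379). The other named genes of the list did not pass at either threshold, with *BBX21* at -0.26, *BBX25* at 0.18 and *HYH*, the close homologue of *HY5*, at 0.41.

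Output genes were read in the same libraries. Of 8 PIF output genes, 5 were above 0 and the median was 0.03. *XTH15*, a cell wall enzyme gene, had 133 and 126 normalized counts in *s2lb-2* seedlings, against 225 and 243 in WT seedlings (log2 fold change -0.85, limma adjusted p = 0.0838). *IAA19*, an auxin response repressor, had 164 and 189 in *s2lb-2* seedlings, against 139 and 140 in WT seedlings (0.33, limma adjusted p = 0.391). The others named by the same rule were *ST2A* at 0.37 and *HB4* at -0.25, so that the genes of this list lay on both sides of 0.

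Of 6 HY5 and light output genes, 5 were above 0 with a median of 0.57, where 11794 of all 23723 genes tested were above 0 with a median of 0.00. In 4 of the 6 both *s2lb-2* libraries lay above both WT libraries, against 24.8% of all genes. Nothing particular to so short a list is read from this count. *TT4*, the chalcone synthase gene of flavonoid synthesis, had 34778 and 30171 normalized counts in *s2lb-2* seedlings, against 19575 and 13461 in WT seedlings (log2 fold change 1.00, limma adjusted p = 0.0844). *ELIP1*, an early light-induced protein gene of chloroplasts, had 2985 and 2529 in *s2lb-2* seedlings, against 2010 and 1103 in WT seedlings (0.88, limma adjusted p = 0.204). Neither passed the test of limma, and *ELIP2* (0.10) and *MYB12* (-0.26), a regulator of flavonol synthesis, overlapped between genotypes.

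**Figure D5:**
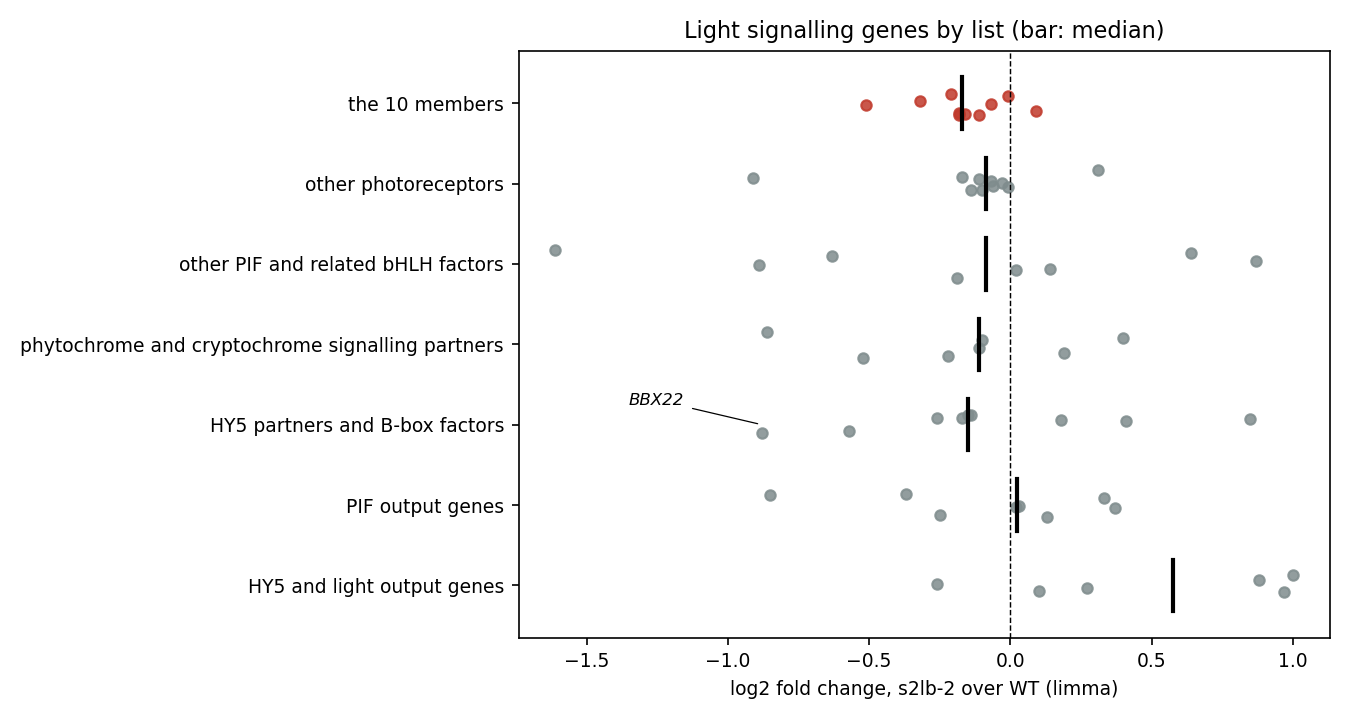
Log2 fold change of *s2lb-2* over WT (limma) for the 10 genes (red, top) and for 6 lists of other light signalling genes (grey), each point a gene and each bar the median of its list, with vertical scatter for legibility only. The 10 genes lie between -0.51 and 0.09, inside the range over the other lists, and *BBX22* is marked at -0.88.

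The libraries held from 34325100 to 39114300 reads on genes, and the 10 genes from 257 to 8698 reads in a library. Markers of green tissue were abundant in all 4 libraries, their summed normalized count being 1725064 to 1929092 in *s2lb-2* libraries, against 1991240 to 2041833 in WT libraries. The 5 root markers summed to 2601 to 2711 in *s2lb-2* libraries, against 2161 to 2683 in WT libraries, and the 3 flower markers to 17.6 to 21.7 in *s2lb-2* libraries, against 5.57 to 13.6 in WT libraries, with *AP1* at 0 throughout. limma called none of the markers with reads at 0.01 or 0.05. *TZP* and *HY5* lie on the chromosome of *S2Lb*, 8.94 and 22.9 Mb from it, and the part of any Nossen sequence left in the *s2lb-2* line was not tested.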

How the data were processed

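PolyA RNA of whole seedlings was sequenced as strand-specific 50-bp single reads, 2 libraries per genotype. The authors mapped reads on TAIR10 with STAR (2.5.4b in the submitters' processing notes), counted them per gene and divided the counts by DESeq2 size factors. The deposited signal is this normalized count. The strand setting of the counting is not given in the sources used here. None of the 10 genes overlaps another annotated gene. A second table holds the authors' own comparison (fold changes, p-values) and was not used.

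Dividing by the smallest step returned whole reads for 100% of values (tolerance 1e-06). The main test was limma 3.58.1 (R 4.3.3) on log2(value + 1), for genes with a mean of at least 1. Fold changes are on this scale. Alternatives run on these reads were limma-voom, edgeR 4.0.16 and DESeq2 1.42.0. Other scalings, filters, pseudocounts and left-out libraries were tried too, and the fits were tested on simulated data. The likelihood ratio test of edgeR was added after the data were seen. TPM used exon lengths, and sequences and positions come from the RefSeq TAIR10.1 annotation.

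The 10 genes and all lists were chosen with earlier results of these data known. Of 64 list entries, 3 whose name the annotation does not carry were left out, and 1 had no reads. Named list genes are those past the threshold, and otherwise the 2 highest and 2 lowest fold changes per list with a mean of at least 50. Of the 7 lists, 1 is counted in the totals and not reported here on its own. With 2 libraries per genotype, their number sets the precision.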

Additional observations from a re-analysis of the deposited data

How the results depend on the processing

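Of the 10 genes, 0 passed under any of the alternatives run, including the count tests, the other scalings, filters and pseudocounts, and each library left out. Of the 60 other light signalling genes, where limma called 0, DESeq2 called 2, an adjusted p under 0.05 called 1 and the likelihood ratio test of edgeR, added after seeing the data, called 5. Over all genes, limma called 29, DESeq2 704, the quasi-likelihood test 42, the likelihood ratio test 939, library totals 95, a pseudocount of 0.1 1 and the threshold of 0.05 379, and 0 with any library left out.

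The replicate numbers are not stated to mark a shared batch, and the libraries with an equal number had correlated deviations (0.178 over the genes tested, 0.407 over genes with a mean above 50). A fit with the replicate block called 0 of the 10 genes, 4 of the 60 (*BBX22*, *ELIP1*, *PIF8* and *TT4*) and 663 of all genes.

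With 1 library left out, its genotype had a single library that is assumed to vary like the others. The log2 fold change then ranged from -0.46 to 0.25 for *PHYA*, -0.07 to 0.25 for *PHYB*, -0.17 to 0.03 for *PIF5*, -0.47 to 0.11 for *HY5*, -0.26 to 0.24 for *SPA1* and -0.72 to 0.40 for *TZP*, crossing 0 in each. The directions of *CRY1*, *CRY2*, *PIF3* and *PIF4* held under all 15 alternatives, although *PIF3* came to -0.00 without *s2lb-2* replicate 2. The number of separated pairs of neighbours in the order of levels was 3 with every length and with WT libraries only. The pairs were not all the same. With the coding length *PIF5* ranked above *CRY1*, and with it or the longest transcript *PHYA* and not *SPA1* followed *CRY2*.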
